A study of Gallus gallus with 4 samples.

Results

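The genes described here are CPT1A, PDK4, PPARGC1A, ACADL, ACSL1, EHHADH and HADHA, which move fatty acids into mitochondria, burn them there or in peroxisomes, or switch cells between sugar and fat as fuel. They were chosen by name with earlier results of these data known, so their counts beside those of all genes are descriptive. Their probes were found through the RefSeq accession printed for each spot. Of the 7 listed genes, 6 had a named probe, with 12 probes in all, out of 5382 genes and 11935 probes that could be named. No probe was named for EHHADH, the bifunctional enzyme of peroxisomal oxidation, and it was not analysed here. All 12 probes passed the filter on dim signals, which asks for both arrays of at least 1 group to be well above background. Both probes of PPARGC1A passed it only through group 2, where their levels were higher. None of the genes lies on a sex chromosome in the gene table used.

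Liver of coloured broiler chickens aged 35 days was measured on 4 one-colour Agilent arrays, which all sat on 1 slide. Group 1 (2 arrays) is labelled high and group 2 (2 arrays) low, with the low birds serving as control. The words high and low stand in the labels for feed efficiency (FE) and also for residual feed intake (RFI), which is what a bird eats beyond the need predicted from its size and growth. Since a high RFI usually goes with a low FE, the groups keep their numbers here. All birds had individual cages, free access to feed and water, and starter feed up to week 4 followed by finisher feed, and the labels name no fasting. RNA of 4 to 5 birds was pooled within a group, and by the design text each pool was divided in duplicate. P-values measure only the spread between these arrays, which in group 1 may be technical. The labels name females for both group 1 arrays and for group 2 replicate 1, and 1 male and 1 female for group 2 replicate 2. The group 2 arrays, which differ in their sex labels and in sex-linked genes (given further on), do not read as duplicates of 1 pool. Position on the slide and group cannot be told apart.

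A fatty acid must be bound to coenzyme A, which ACSL1 does, and then handed to carnitine by CPT1A before it can enter the mitochondrion. Inside, acyl-CoA dehydrogenases such as ACADL and the trifunctional protein, whose alpha subunit is HADHA, shorten the chain step by step to acetyl-CoA. PDK4 phosphorylates and thereby blocks pyruvate dehydrogenase, which keeps pyruvate from being turned into acetyl-CoA while fat is burned. PPARGC1A is a coactivator of the nuclear receptors that drive these genes, and in mammals CPT1A, PDK4 and PPARGC1A rise together in the fasted liver.

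CPT1A was higher in group 1 and passed the test on both of its probes, with log2 differences of 2.18 and 3.12. HADHA had differences above 0 on all 3 probes, of which 1 passed. PDK4 pointed in the opposite direction by -3.61 on its brighter probe, and PPARGC1A by -1.15, but neither passed the test, and the group 2 arrays lay far apart for both genes. ACADL differed by 0.51 and ACSL1 by -0.07, and neither passed. By brightest probe 1 of the 6 genes was called, while 9.67% of all 4872 genes were called, 5.75% higher and 3.92% lower in group 1. Of the 12 probes 3 were called, all higher in group 1 and belonging to CPT1A and HADHA, against 11.2% of all 33866 tested probes, of which 7.39% were higher and 3.82% lower. The groups did not overlap for 11 of the 12 probes, a share to read beside 67.3% of all probes and 68.1% of all genes. An unadjusted p under 0.05 was reached by 7 of the 12 probes, against 35.3% of all probes and 31.6% of genes.

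A few facts of the arrays bear on every value. Between 72.3% and 80.2% of the spots of an array were well above background. Replicates correlated across probes with r = 0.989 in group 1 and r = 0.966 in group 2. The array labelled group 2 replicate 1 went against its label, since the W-linked gene HINTW lay at least 500.4-fold below the group 1 mean there (median of 8 probes, 1 of them not well above background) and Z-linked probes had a median of 0.50 log2 units above the other arrays. On group 2 replicate 2, labelled 1 male and 1 female, the HINTW median was -0.29 relative to the group 1 mean and Z-linked probes had a median of -0.16 against the other arrays, close to the group 1 arrays at -0.16 and -0.19. The sex labels of both group 2 arrays are therefore in doubt, and the differences of the members are also given without replicate 1. In a fit without a group 2 array the spread comes from the group 1 arrays alone, so its adjusted p does not cover the spread within group 2. Levels are log2 intensities with the array's 75th percentile set to 0, differences are group 1 minus group 2 with their standard error (SE) from limma, and a call is an adjusted p under 0.05 over all tested probes. The median difference of all genes was 0.14, and -0.08 when arrays were scaled on their medians, and differences relative to the median of 0.14 are given for some results.

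CPT1A, the outer membrane enzyme that passes the acyl group to carnitine, stood at levels of 0.51 and 0.67 in group 1 against -1.26 and -1.91 in group 2 on its brighter probe, A_87_P058446. In scanner units these spots read 1397 and 2314 in group 1 and 489 and 341 in group 2. Both group 1 arrays lay above both group 2 arrays, and the nearest arrays of the groups were 1.77 log2 units apart. The means were 0.59 ± 0.11 in group 1 and -1.58 ± 0.46 in group 2 (SD, n = 2 arrays each), a difference of 2.18 ± 0.29 (SE, limma, adjusted p = 0.0292). That is 4.52-fold higher in group 1, with a 95% interval of 2.65 to 7.72-fold, and 2.04 log2 units above the all-gene median.

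The dimmer CPT1A probe, A_87_P116453, gave the same order of arrays between groups. Its levels were 0.40 and 0.06 in group 1 and -2.52 and -3.24 in group 2, with means of 0.23 ± 0.24 and -2.88 ± 0.51 (SD, n = 2 arrays each). The difference of 3.12 ± 0.32 (adjusted p = 0.0227) is 8.67-fold, nearly a log2 unit more than on the brighter probe, and the 95% interval of 4.79 to 15.7-fold overlaps that of the brighter probe. Group 2 replicate 2 was the lowest array on both probes. Without group 2 replicate 1 the brighter probe differed by 2.50, and without group 2 replicate 2 by 1.85. The dimmer probe gave 3.48 and 2.76 in these fits. Without either group 1 array the differences were 2.26 and 2.10, and the calls were lost (adjusted p = 0.283 and 0.215), as they were for every probe on the array. Among all genes, 2.50% had a larger absolute difference than CPT1A.

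**Figure D1:**
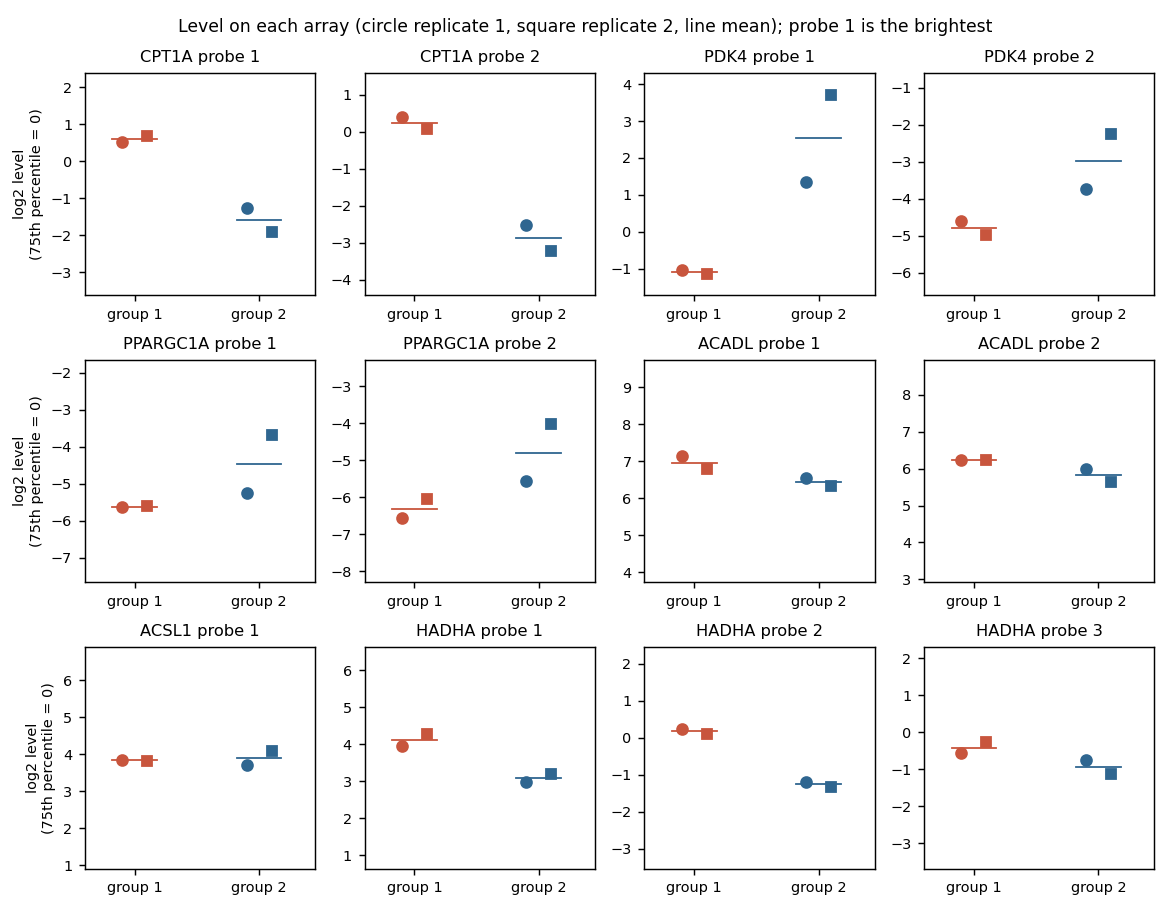
Level of each of the 12 probes on the 4 arrays, as log2 intensity with the array's 75th percentile at 0. Every panel spans 6 log2 units. Circles are replicate 1, squares replicate 2 and lines group means, with group 1 on the left. CPT1A and HADHA lie higher in group 1, while PDK4 and PPARGC1A lie higher in group 2 with replicate 2 far above replicate 1.

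Among the members only ACSL1 stands for activation, the step before CPT1A, and its RNA showed no such difference. ACSL1, a long-chain acyl-CoA synthetase found on the outer mitochondrial membrane and the endoplasmic reticulum, had levels of 3.83 and 3.83 in group 1 and 3.71 and 4.08 in group 2 on its only probe, A_87_P056446. The group 1 values fell between those of group 2, and ACSL1 was the only one of the 6 genes whose groups overlapped. The means were 3.83 ± 0.0033 in group 1 and 3.90 ± 0.26 in group 2 (SD, n = 2 arrays each). The difference of -0.07 ± 0.23 (adjusted p = 0.845) has a 95% interval of -0.67 to 0.53, or 0.628 to 1.45-fold in group 1 over group 2. Its difference was -0.26 without group 2 replicate 1, and its sign turned to 0.12 without group 2 replicate 2.

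The enzymes that shorten the chain inside the mitochondrion came next. ACADL, a dehydrogenase of long-chain acyl-CoA, had levels of 7.13 and 6.78 in group 1 and 6.56 and 6.34 in group 2 on probe A_87_P036338. On probe A_87_P273008 the levels were 6.22 and 6.22 in group 1 and 5.99 and 5.65 in group 2. The groups did not overlap on either probe, but the nearest arrays were only 0.23 log2 units apart on each. The differences of 0.51 ± 0.24 (adjusted p = 0.199) and 0.40 ± 0.22 (adjusted p = 0.262) did not pass the test, and their 95% intervals ran from -0.11 to 1.13 and from -0.19 to 0.99. Relative to the all-gene median they were 0.37 and 0.27, and 45.1% of genes had a larger absolute difference than ACADL. The differences without group 2 replicate 1 were 0.61 and 0.57, and neither passed.

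HADHA, whose enzyme carries the hydratase and long-chain dehydrogenase activities of the trifunctional protein, was read by 3 probes. The brightest, A_87_P009006, had levels of 3.94 and 4.28 in group 1 and 2.98 and 3.20 in group 2, a difference of 1.02 ± 0.23 that just missed the threshold (adjusted p = 0.0599). Probe A_87_P121118 had 0.24 and 0.11 in group 1 against -1.19 and -1.32 in group 2, and its difference of 1.43 ± 0.20 passed (adjusted p = 0.0303). That call was lost without the filter on dim probes (adjusted p = 0.0527), without moderation and without either group 1 array. Probe A_87_P055151 had -0.57 and -0.26 in group 1 against -0.76 and -1.13 in group 2, a difference of 0.53 ± 0.25 (adjusted p = 0.208). The groups were apart on all 3 probes, so the probes share a direction and differ in size. With the mean of the 3 probes as the value of the gene, HADHA differed by 0.99 and passed (adjusted p = 0.0322, over genes). Without group 2 replicate 1 the brightest probe gave 0.91 (adjusted p = 0.065), and without group 2 replicate 2 it gave 1.13 and passed (adjusted p = 0.0439). The called probe kept its call without group 2 replicate 1 (adjusted p = 0.0226), and the dimmest gave 0.71 there (adjusted p = 0.0966).

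**Figure D2:**
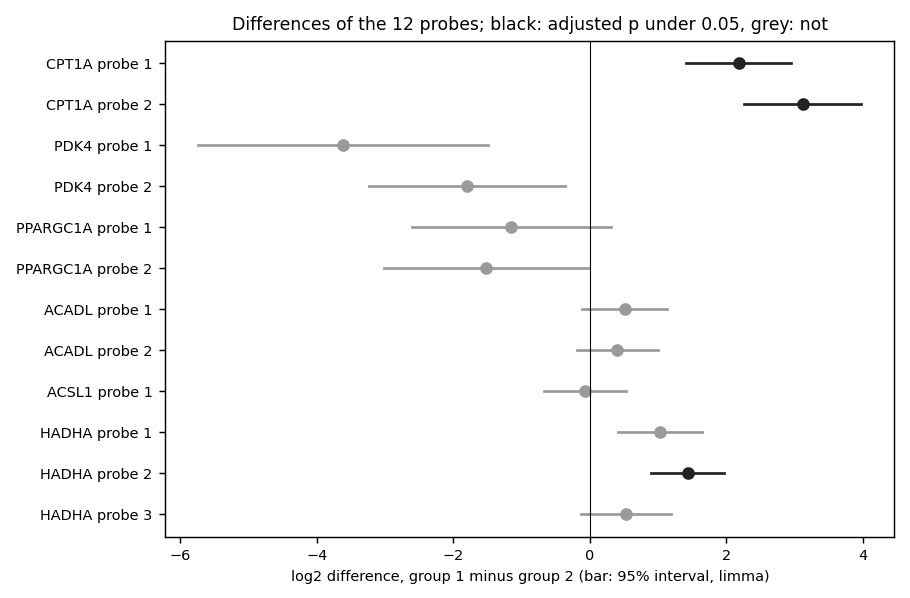
Log2 difference of each of the 12 probes, group 1 minus group 2, with its 95% interval from limma, probes of a gene listed from brightest to dimmest. Black marks the 3 probes with an adjusted p under 0.05 (both probes of CPT1A and 1 of HADHA). The intervals of PDK4 and PPARGC1A are wider than those of the other genes.

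The fuel switch kinase went against CPT1A. PDK4 had levels of -1.02 and -1.13 in group 1 against 1.35 and 3.72 in group 2 on its brighter probe, A_87_P015783. In scanner units that is 482 and 662 in group 1 and 2980 and 16805 in group 2. The group 1 arrays nearly coincided, and both group 2 arrays lay above them by at least 2.37 log2 units, but the group 2 arrays themselves were 2.37 log2 units, or 5.16-fold, apart. The means were -1.08 ± 0.08 in group 1 and 2.53 ± 1.67 in group 2 (SD, n = 2 arrays each). The difference of -3.61 ± 0.80 is 12.2-fold higher in group 2 and was the sixth lowest of 4872 genes, but it did not pass the test (adjusted p = 0.0571).

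The dimmer PDK4 probe, A_87_P101586, had -4.61 and -4.97 in group 1 and -3.74 and -2.24 in group 2, a difference of -1.80 ± 0.54 (adjusted p = 0.0954). The direction and the order of the group 2 arrays were those of the brighter probe, and the size was smaller. Without group 2 replicate 1 the brighter probe differed by -4.79, and without group 2 replicate 2 by -2.43. In each fit the spread came from the group 1 arrays alone. The dimmer probe gave -2.55 and -1.05 in the same fits. With normexp background correction and the 75th percentile the dimmer probe was not called at -0.96 (adjusted p = 0.119), where the brighter probe passed at -3.44. Only 0.657% of genes had a wider gap between the group 2 arrays than PDK4.

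PPARGC1A, the coactivator, was dim on this array design, and both of its probes entered the test only through group 2. It was not tested when all 4 arrays had to be well above background. Its probe A_87_P038068 had levels of -5.62 and -5.61 in group 1, where 1 of 2 arrays was well above background, against -5.25 and -3.68 in group 2. Group 2 replicate 1 lay 0.36 log2 units above the nearer group 1 array, and group 2 replicate 2 stood apart at 2.96 times the level of replicate 1. The difference of -1.15 ± 0.55 did not pass (adjusted p = 0.21), with a 95% interval of -2.60 to 0.30. Without group 2 replicate 2 it shrank to -0.37, and without group 2 replicate 1 it was -1.93. Its size also moved with the background correction, to -0.45 with normexp and the 75th percentile.

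The second PPARGC1A probe, A_87_P311832, was not well above background on either group 1 array. Its measured levels were -6.56 and -6.07 in group 1 and -5.57 and -4.03 in group 2. The fitted difference was -1.51 (adjusted p = 0.139), and set against the lowest signals well above background, PPARGC1A was at least 2.12-fold higher in group 2 on this probe. That bound compares the group 2 mean with the mean of the higher, on each group 1 array, of the probe's own signal and that limit. It rests on group 2 replicate 2, since without that array it is 1.24-fold, and it is 3.62-fold without group 2 replicate 1. Every bound given as at least is approximate, because a spot can read above its array's lowest such signal without being well above background. The first probe did so on 1 group 1 array, reading 19.8 and 29.7 against lowest signals of 18.7 and 21.7 scanner units. With normexp and the 75th percentile the second probe differed by -0.47, and without group 2 replicate 1 by -2.29.

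The group 2 arrays thus split the members. Replicate 2 minus replicate 1 was 2.37 for PDK4, 1.57 for PPARGC1A, 0.37 for ACSL1, 0.22 for HADHA, -0.21 for ACADL and -0.65 for CPT1A by brightest probe. In the median gene the absolute gap was 0.31 in group 2 and 0.15 in group 1. Of all genes, 2.98% had a wider group 2 gap than PPARGC1A and 21.2% a wider one than CPT1A. The group 1 gaps of the 6 genes were 0.35 at most. The direction of the group 2 gap was opposite in CPT1A, which was lowest on replicate 2, and in PDK4 and PPARGC1A, which were highest there.

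**Figure D3:**
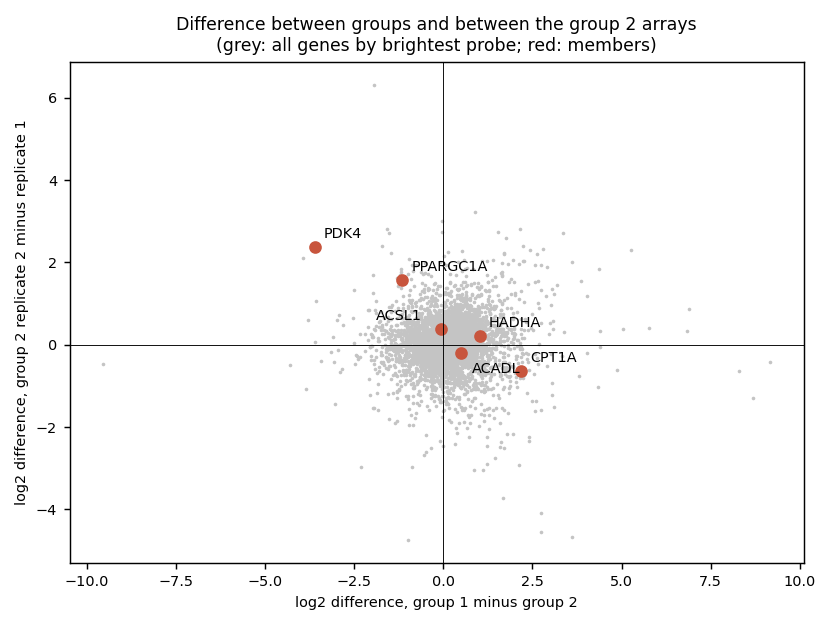
Each grey point is a gene by its brightest probe (4872 genes), with the log2 difference between groups (group 1 minus group 2) on the horizontal axis and the log2 difference between the group 2 arrays (replicate 2 minus replicate 1) on the vertical axis. Red points are the 6 members. PDK4 (-3.61 and 2.37) and PPARGC1A (-1.15 and 1.57) lie at the upper left, CPT1A (2.18 and -0.65) at the lower right and the other 3 near the centre.

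The other genes of the pathway came from 7 lists with 134 symbols, of which 62 had a named probe and 61 were tested. No gene was called higher and 1 was called lower in group 1, or 1.64%, below the 9.67% of all genes. Differences above 0 were found for 38 and below 0 for 23, with a median of 0.16 beside 0.14 over all genes. With median scaling these were 27 and 34, as 11 genes changed sign, and the median turned to -0.05, so the balance of signs turned with the scaling. The groups did not overlap for 38 of the 61, or 62.3%, beside 68.1% of all genes. The median of the list was 0.22 without group 2 replicate 1 and 0.16 without group 2 replicate 2, beside 0.11 and 0.13 over all genes.

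The called gene was HACL1, a peroxisomal lyase of the alpha-oxidation of branched fatty acids. Its levels were -2.75 and -2.78 in group 1 and -0.81 and -1.26 in group 2 on the brighter probe, a difference of -1.73 ± 0.24 (adjusted p = 0.0303). The other probe of HACL1 differed by only -0.34 ± 0.28 (adjusted p = 0.427), so the probes disagree in size. The brighter probe gave -1.50 without group 2 replicate 1. The call of HACL1 was lost without either group 1 array, without moderation, without the filter on dim probes (adjusted p = 0.0518) and with the mean of its probes (-1.03, adjusted p = 0.0524).

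Of 10 tested genes of peroxisomal oxidation, 9 did not pass. AMACR, the racemase for branched acyl-CoA, had 1.98 and 1.94 in group 1 and 3.62 and 2.74 in group 2, a difference of -1.22 ± 0.35 (adjusted p = 0.0854). AMACR lies on chromosome Z and was highest on group 2 replicate 1, the array that went against its sex label, without which it differed by -0.79 (adjusted p = 0.0521). The list's median was 0.28 with 6 above 0 and 4 below.

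None of 9 genes of mitochondrial beta-oxidation passed, and their median was 0.16 with 6 above 0. ECHS1, an enoyl-CoA hydratase, differed by 0.59 ± 0.23 (adjusted p = 0.15), ACAD9, an acyl-CoA dehydrogenase that also helps assemble complex I, by 0.58 ± 0.24 (adjusted p = 0.169), and ACADSB, which acts on short branched chains, by -0.63 ± 0.35 (adjusted p = 0.265). These are the 3 largest differences of the list, and each is below that of CPT1A in size. ACADSB differed by -1.08 without group 2 replicate 1 and by -0.18 without group 2 replicate 2.

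Of the carnitine shuttle 3 genes were tested and none passed. CPT2, the inner membrane partner of CPT1A, had levels of 3.44 and 3.28 in group 1 and 3.29 and 2.83 in group 2, which overlap. It differed by 0.30 ± 0.25 on its brighter probe (adjusted p = 0.433, 95% interval -0.36 to 0.96) and by -0.55 ± 0.26 on the other, so its probes disagree in sign. The transporter SLC22A4 differed by 0.19 (-0.03 with median scaling) and TMLHE, which starts carnitine synthesis, by -0.11.

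None of the 4 tested genes of fatty acid transport and activation passed. The fatty acid receptor CD36 differed by 0.49 ± 0.28 (adjusted p = 0.266), ACSL5 by 0.13 (-0.09 with median scaling) and the peroxisomal acyl-CoA-binding protein ACBD5 by -0.09. ACSL5 had levels of 5.23 and 5.24 in group 1 and 5.31 and 4.90 in group 2. Its groups overlapped, as did those of ACSL1, also an acyl-CoA synthetase, while 68.1% of all genes had groups that did not overlap.

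Among 4 genes of ketone bodies none passed and the median was 0.44. OXCT1, which lets tissues use ketone bodies, came nearest, with levels of 0.12 and 0.07 in group 1 against -0.72 and -0.75 in group 2 and a difference of 0.83 ± 0.19 (adjusted p = 0.061). OXCT1 also lies on chromosome Z, and without group 2 replicate 1 it differed by 0.85. SLC16A1, a carrier of lactate, pyruvate and ketone bodies, differed by 0.51 ± 0.21 (adjusted p = 0.16) and the thiolase ACAT1 by 0.37 ± 0.21 (adjusted p = 0.266).

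Around pyruvate dehydrogenase, the target of PDK4, 8 genes were tested and none passed. PDK1 and PDK3, kinases of the same enzyme, differed by -0.25 ± 0.42 (adjusted p = 0.697) and 0.16 ± 0.27 (adjusted p = 0.685, -0.05 with median scaling), and both were named here as relatives of PDK4 after their values were seen. Their signs turned with the group 2 array left out. PDK1 differed by -0.81 without group 2 replicate 1 and 0.31 without group 2 replicate 2, and PDK3 by -0.11 and 0.44. DLD, a subunit shared with other dehydrogenases, differed by 0.58 ± 0.20 (adjusted p = 0.124). PCK1, which draws carbon from the cycle into gluconeogenesis, had 3.44 and 3.41 in group 1 and 1.57 and 2.47 in group 2, a difference of 1.40 ± 0.35 (adjusted p = 0.0695). Its mitochondrial form PCK2 had 5.20 and 5.06 in group 1 and 3.11 and 4.64 in group 2, a difference of 1.25 ± 0.54 (adjusted p = 0.179). Without group 2 replicate 1 PCK1 differed by 0.95 and PCK2 by 0.49. The values were 1.85 and 2.02 without group 2 replicate 2.

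The regulators gave no call in 23 tested genes, with 12 above 0 and 11 below and a median of 0.09. PPARA, the nuclear receptor best known for inducing CPT1A in mammalian liver, differed by 0.33 ± 0.19 on its brightest probe (adjusted p = 0.285), and by -0.54 and -0.58 on its other probes, which also did not pass. PRKAA2, a catalytic subunit of the energy sensor AMPK, was not well above background on either group 2 array. Its fitted difference of 2.56 ± 0.56 did not pass (adjusted p = 0.0554). Set against the lowest signals well above background, it was at least 2.29-fold higher in group 1. That bound ran from 1.97 to 2.67-fold with an array left out. PRKAA1, the other catalytic subunit, pointed the opposite way by -1.25 ± 0.28 (adjusted p = 0.057), or 2.39-fold higher in group 2. PRKAA1 lies on chromosome Z, differed by -1.06 without group 2 replicate 1, and was named after its values were seen. PRKAG3, a regulatory subunit of AMPK known from skeletal muscle, had 0.96 and 0.64 in group 1 and 0.10 and -4.00 in group 2, a difference of 2.75 ± 1.37 with group 2 replicate 2 far below the rest (adjusted p = 0.223). SIRT5, a mitochondrial deacylase, differed by -1.52 ± 0.34 (adjusted p = 0.0583). HADHB, ACADM, PDK2, PPARGC1B, FGF21 and ANGPTL4 had no named probe and were not analysed here.

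**Figure D4:**
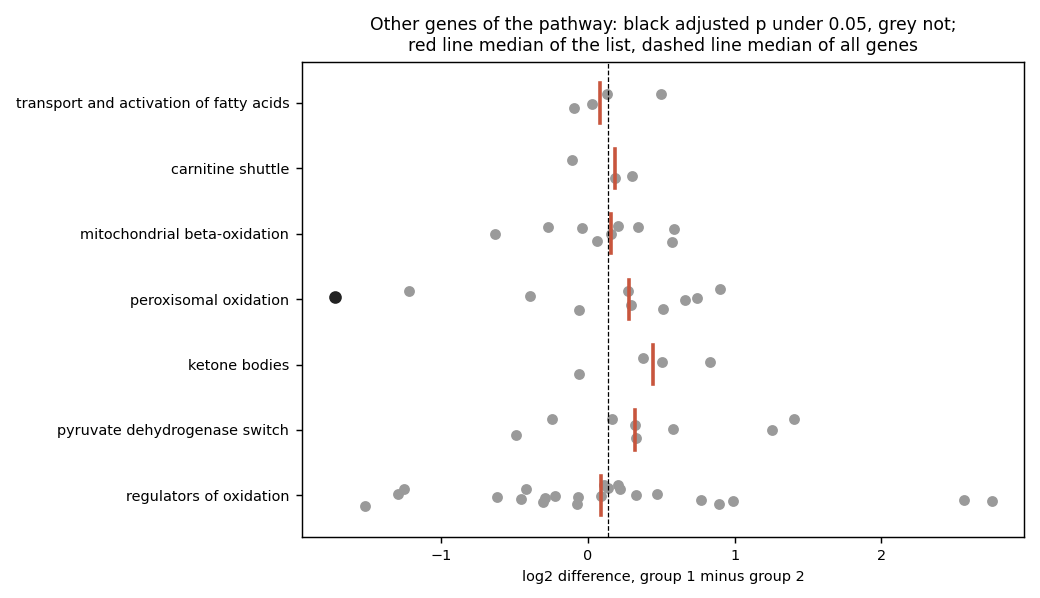
Log2 difference, group 1 minus group 2, of 61 other genes of fatty acid oxidation and fuel choice by list, each point a gene by its brightest probe. Black marks HACL1 (-1.73), the only gene with an adjusted p under 0.05. The red line is the median of each list, from 0.08 to 0.44, and the dashed line the median of all genes, 0.14.

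Likeness across the 4 arrays was measured as the Euclidean distance between levels centred on the gene's mean, over 4764 named genes, and describes 4 arrays only. Nearest to CPT1A were the MHC class I gene BF2 (distance 0.13), which differed by 2.27 between the groups, and ARL8BL (0.14), which was not well above background on either group 2 array, so that its distance rests partly on background. Nearest to PDK4 were RPE65 (0.42), a retinoid isomerase, and the cytochrome CYP2C18 (1.07). RPE65 was not well above background on either group 1 array. The distance is not scaled for size, so it tends to be larger for genes with large differences, such as PDK4. Nearest to PPARGC1A were NOG (0.12), a BMP antagonist, and OAT (0.14), an aminotransferase of ornithine, both high on group 2 replicate 2. For ACADL they were OLFR4 and the hexokinase HK2, for ACSL1 the chromatin reader YEATS4 and the somatostatin receptor SSTR3, and for HADHA the calcium-binding protein CABP2 and the nuclear receptor RXRG, all at distances of 0.03 to 0.07. Among the members themselves the closest pair was ACADL with ACSL1 (0.75), followed by ACADL with HADHA (0.77), and the farthest was CPT1A with PDK4 (6.17). By rank among the 4764 genes ACSL1 was only 2338th from ACADL and HADHA 2429th, so neither pair was close. PPARGC1A was 79th from PDK4 and HADHA 396th from CPT1A. In the reverse direction PDK4 was 4224th from PPARGC1A and CPT1A 3098th from HADHA.

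Several markers of cells other than hepatocytes differed between the groups, and their part in these results was not tested. All counts of called markers are to be read beside 5.75% of all genes called higher and 3.92% called lower in group 1. In a piece of tissue, fewer cells of a type and less RNA per cell cannot be told apart. Of 10 hepatocyte markers none passed, with a median of 0.05 and a summed level (in multiples of the 75th percentile) of 1350 to 1883 in group 1 and 1389 to 1690 in group 2. Of 10 erythroid markers 4 were called higher, and the sum was 302 to 367 in group 1 and 40.2 to 139 in group 2. That sum is carried by the globins HBBA, HBA1 and HBAD, which were not called (adjusted p = 0.101, 0.0939 and 0.0857). HBZ, the only erythroid marker below 0, differed by -0.81 ± 0.28 and was not called (adjusted p = 0.123). Of 13 intestinal markers 8 were called higher, with a sum of 363 to 455 in group 1 and 354 to 360 in group 2. That sum is carried by APOA4 and ANPEP, which the test did not call. Without this pair, chosen after seeing the values, the sum was 11.6 to 12.3 in group 1 and 1.87 to 2.15 in group 2. The enterocyte lipid carriers RBP2 (at least 199.5-fold, adjusted p = 0.00618) and FABP2 (at least 95.7-fold, adjusted p = 0.00692) were among those higher in group 1, as was the intestinal factor CDX2 (at least 31.6-fold, adjusted p = 0.0144). None of the 3 was well above background on either group 2 array. FABP6, the only intestinal marker below 0, differed by -0.71 ± 0.21 and was not called (adjusted p = 0.0928). Of 9 endothelial and stellate cell markers 5 were called higher and all 9 lay above 0, with a sum of 27.9 to 30.8 in group 1 and 8.54 to 9.32 in group 2. The 5 were the matrix genes COL1A2, COL3A1, COL5A1, DCN and LUM. The endothelial markers CDH5 (0.53, adjusted p = 0.316) and KDR (0.26, adjusted p = 0.458) were not called, nor were ACTA2 and VIM. Of 10 lymphocyte and macrophage markers 2 were called higher and 1 lower, while 9 lay above 0 and 1 below. Their sum was 274 to 301 in group 1 and 164 to 230 in group 2, and 1 more marker was not well above background on any array.

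Muscle gave 2 of 9 markers called higher and 1 lower, and a sum of 3.69 to 4.04 in group 1 and 8.47 to 10.4 in group 2. The marker called lower was TNNC1, the slow and cardiac troponin C, with levels of 1.30 and 1.46 in group 1 and 3.26 and 3.02 in group 2, and it makes up most of the sum. The other 8 markers all had differences above 0, with a sum of 1.22 to 1.29 in group 1 and 0.371 to 0.81 in group 2. Another 2 muscle markers were not well above background on any array. Of 6 adipose markers 1 was called higher, and the sum was 12.7 to 14.7 in group 1 and 16.7 to 19.5 in group 2. Most of it is CIDEC, the only adipose marker below 0, and without it the sum was 2.04 to 2.17 in group 1 and 1.44 to 1.52 in group 2. Of 9 pancreas markers 2 were called higher, while 7 lay above 0 and 2 below (sum 1.66 to 2.16 in group 1 and 1.26 to 1.58 in group 2).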

How the data were processed

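Per the file headers, the authors scanned 1-colour Cy3 arrays and read them with Agilent Feature Extraction 11.5.1.1 on a design of build galGal3, and the deposited scanner files give each spot's intensity on a linear scale with background subtracted. The deposited series table holds log2 values whose processing is not given in the sources used here. Each of its columns matched the scanner log2 values scaled as below and centred on the probe's median over the arrays (r of 1.00 on every array), with column medians of 0.08 and 0.02 in group 1 and -0.09 and -0.02 in group 2.

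For the comparison, the 75th percentile of an array's 43803 non-control spots was subtracted from its log2 intensities, and groups were tested by lmFit and eBayes of limma 3.58.1, run under R 4.3.3 (2 residual and 2.60 prior degrees of freedom), with Benjamini-Hochberg adjustment over all tested probes. Outlier spots (8 to 25 per array) were set to missing and spots of a probe averaged. No spot was saturated. Probes entered the test if at least 1 group had both arrays well above background. An exact two-sided permutation over 2 and 2 arrays cannot give a p below 0.333. The method was tested on simulated data with the same spread in both groups and with changes larger than most member differences. That test does not cover smaller differences or the wider gaps of group 2.

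Probes were named through unversioned RefSeq accessions looked up in the GRCg7b gene table, which named 11935 of 43603 (27.4%), so unnamed probes may hold further genes. The brightest tested probe stood for a gene. Members and lists were chosen with earlier results of these data known. Named are all members, pathway genes that were called, the 3 largest differences of each list, those of 10 fixed genes that were measured, and for each member the 2 nearest genes by distance. Some genes that this rule names are not reported here. Precision is limited by the number of arrays. Alternatives covered scaling, background correction, the filter, flagged spots, the deposited table, the replicate number as a block, the variance model, the probe rule and each left-out array. Normexp used the median spot signal, since the scanner files hold no mean signal, and this was added after the data were seen. The deviations of same-numbered arrays from their group means correlated at 0.03, and the labels name no shared source for them.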

Additional observations from a re-analysis of the deposited data

How the results depend on the processing

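CPT1A kept its sign and its call under all alternatives except without moderation (2.18, call lost) and without either group 1 array (1.85 to 2.50 over the 4 fits with an array left out). HADHA, by brightest probe, passed with an intensity trend (1.02), with the mean of its probes (0.99), with normexp followed by the 75th percentile (0.999) or by quantile normalization (0.98), and ranged from 0.85 to 1.19 with an array left out. PDK4 passed with a trend (-3.61), with normexp (-3.44 and -3.46 in the same order) and with the replicate block (-3.61), and ranged from -4.79 to -2.43 with an array left out. PPARGC1A ranged from -1.93 to -0.37 and ACSL1 from -0.26 to 0.12, where its sign turned. Normexp with the 75th percentile moved PPARGC1A to -0.45 and its second probe to -0.47, and quantile normalization to -1.63 and -2.08. The dimmer PDK4 probe was not called in any setting that kept all 4 arrays. The cause was not tested where a call moved, but a left-out array leaves the spread to the pair of the other group, and no moderation leaves 2 degrees of freedom.

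Of the 6 members 1 was called, against 3 with a trend and with either normexp setting, 2 with the mean of probes and with the replicate block, 0 without moderation, and 0 to 3 with an array left out. Of the 61 pathway genes 1 was called, against 7 with a trend, 5 with the mean of probes, 2 with median scaling, 6 and 5 with normexp, 0 without the filter, 0 without moderation, and 0 to 10 with an array left out. Over all 33866 tested probes 3799 (11.2%) were called, 2504 higher and 1295 lower (65.9% higher). The counts were 1241 without the filter (926 and 315), 0 without moderation (0 and 0, with 4937 and 3199 at an unadjusted p under 0.05) and 2413 with the replicate block (722 lower). Quantile normalization gave 1574 higher and 1482 lower (51.5% higher), median scaling 1688 and 2012 lower (45.6%), a trend 1962 lower, and normexp with quantile normalization 2279 lower (50.4% higher). In total a trend gave 4991 calls, and normexp 4597 with the 75th percentile and 4594 with quantile normalization. No total over all genes was counted with the mean of probes. With the replicate block the member calls rose from 1 to 2 while those over all probes fell from 3799 to 2413. In the trend and normexp settings the calls over all probes rose together with those of the members and the pathway genes. With an array left out they ranged from 0 to 8957 (0 to 5845 higher and 0 to 3112 lower), with 0 calls by limma without either group 1 array, where 4644 and 6182 probes had an unadjusted p under 0.05. The planned normexp on the mean signal was not run.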
